A study of Mus musculus with 6 samples.

Results

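The stretch of mouse chromosome 19 around Ide, together with Nnt and Gabra2, was followed library by library in RNA from the anterior cingulate cortex. The set holds 8 genes of the 14249 measured. Of these, 6 lie on chromosome 19 (Hectd2, Tnks2, Fgfbp3, Btaf1, Cpeb3 and Ide), while Nnt (chromosome 13) and Gabra2 (chromosome 5) are known to differ among stocks of C57BL/6 mice. The members were chosen by measured values of these same libraries: Ide and Btaf1 had passed the LPS against saline test, the other chromosome 19 genes lie near them, and Nnt was picked with its values in view. Their differences between the groups are therefore a description and carry no test here.

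Both groups were C57BL/6 mice sampled at postnatal day 45. The 3 LPS mice had been given 50 µg per kg of lipopolysaccharide, a bacterial endotoxin, into the abdomen at postnatal day 14, and the 3 saline mice an injection of pyrogen-free saline at the same age. Each library came from 1 mouse, named here by group and replicate number. The labels give neither the substrain or supplier of the mice nor their sex or litter, and do not say which mice shared a cage. The table holds counts per gene and no genotype, exon or allele readout, so a difference in genotype between the groups and a change in regulation cannot be told apart in it.

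Ide codes for insulin-degrading enzyme, a zinc metalloprotease that cleaves insulin, amyloid beta and other small peptides. Inbred mice of 1 strain name are not all alike: stocks kept apart collect their own mutations. Copy number variation that includes Ide has been described among C57BL/6J mice. The C57BL/6J substrain carries a multi-exon deletion in Nnt, whose product, nicotinamide nucleotide transhydrogenase, makes mitochondrial NADPH, and an intronic deletion in Gabra2, the gene of the α2 subunit of the GABA-A receptor, that lowers its expression in brain.

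Fgfbp3 and Btaf1 sit head to head, with 6.46 kb between their starts, and both were higher in every LPS library, as was Ide. The 250 bases upstream of the RefSeq start of these 3 genes are shown because each gene was higher in every LPS library. The build is GRCm38.p6, and each window reads 5′ to 3′ on the strand of its gene. The windows lie at chr19:36919600-36919849 (minus strand), chr19:36925829-36926078 (plus strand) and chr19:37334545-37334794 (minus strand). Capitals mark matches, on either strand, to 5 motifs searched: the CRE (TGACGTCA), an ETS motif (CCGGAAG), the GC box (GGGCGG), the CCAAT box (CCAAT) and the TATA box (TATAAA).

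Fgfbp3: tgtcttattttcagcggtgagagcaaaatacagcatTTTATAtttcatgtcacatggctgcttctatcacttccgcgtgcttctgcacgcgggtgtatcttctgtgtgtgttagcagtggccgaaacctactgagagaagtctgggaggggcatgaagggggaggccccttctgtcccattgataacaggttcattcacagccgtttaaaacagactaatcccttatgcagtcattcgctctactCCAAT

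Btaf1: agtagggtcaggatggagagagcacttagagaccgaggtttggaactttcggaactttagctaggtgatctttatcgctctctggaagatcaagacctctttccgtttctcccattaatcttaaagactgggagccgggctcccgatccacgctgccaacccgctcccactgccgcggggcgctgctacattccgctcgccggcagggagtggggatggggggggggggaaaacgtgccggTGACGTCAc

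Ide: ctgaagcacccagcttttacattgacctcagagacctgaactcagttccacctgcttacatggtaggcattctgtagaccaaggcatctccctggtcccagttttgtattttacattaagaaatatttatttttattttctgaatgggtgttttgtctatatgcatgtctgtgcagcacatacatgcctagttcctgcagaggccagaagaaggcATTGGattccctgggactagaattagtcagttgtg

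The Btaf1 window held a full CRE, a motif present in 1.55% of the 32851 RefSeq promoter windows of this length. Fgfbp3 held 1 TATA box match (12.4% of windows) and 1 CCAAT box match (33.8%), and Ide 1 CCAAT box match. None of the 3 windows held the ETS motif (6.91%) or the GC box (32.7%), and no motif occurred in all 3. CG dinucleotides numbered 8 in the Fgfbp3 window, 17 in that of Btaf1 and 0 in that of Ide, against a median of 6 over all windows. The RefSeq start of Ide lies 3.31 kb inside the span that GENCODE M21 gives the gene. Its window is thus not the sequence upstream of the GENCODE start, which was not searched. These matches describe the letters of the windows and say nothing of factor binding. Of the 8 members, 6 were matched in the promoter table used.

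Libraries held 36168687 to 41270737 counts. Over all genes, edgeR at an adjusted p under 0.05 called 14 genes higher (0.0983% of those tested) and 27 lower (0.189%) in LPS mice. Every LPS library lay above every saline library in 976 genes (6.85%) and below in 974 (6.84%), and the median log2 change of all genes was 0.00139. All 9 fixed markers of excitatory cortical neurons were present, and summed to 7310 to 8370 CPM (saline) and 7530 to 8050 CPM (LPS) (CPM, library-size scaled counts with TMM factors). Summed markers of striatum (7 of 7 measured, 151 to 159 and 149 to 158 CPM) and thalamus (4 of 4, 43.3 to 47.7 and 34.9 to 43.7 CPM) were far lower. Hippocampus markers (3 of 3) varied more, at 107, 178 and 191 CPM in Saline 1, 2 and 3 and 77.4, 177 and 95.3 CPM in LPS 1, 2 and 3. Oligodendrocyte markers (5 of 5) summed to 1670 to 2140 CPM (saline) and 1690 to 2340 CPM (LPS). The choroid plexus markers Ttr and Folr1 were not among the rows of the table.

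Ide had about 1.5 times as much RNA in LPS as in saline mice. Its level was 54.1, 49.1 and 48.3 CPM in Saline 1, 2 and 3 and 77.2, 76.9 and 72.0 CPM in LPS 1, 2 and 3. The groups were well apart, and the 3 libraries of each lay close together. Means were 50.5 ± 3.17 and 75.3 ± 2.94 CPM (SD, n = 3 each), a ratio of 1.49 and a log2 change of 0.58 (SE 0.0658). Here as for each gene below, bulk RNA cannot tell a change in RNA per cell from a change in the number of cells that express it. In GENCODE M21 (GRCm38) the gene spans chr19:37268743-37337852 on the minus strand, and its exons overlap no other annotated gene.

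Btaf1, which codes for an ATPase that strips the TATA-binding protein from DNA, had a ratio of similar size. It read 30.7, 35.9 and 31.4 CPM in Saline 1, 2 and 3 and 47.4, 51.6 and 43.7 CPM in LPS 1, 2 and 3. Again no LPS library reached down to the saline range. The ratio of means was 1.46 and the log2 change 0.54 (SE 0.0884). Btaf1 spans chr19:36926079-37012752, and 256 kb separate it from Ide.

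Fgfbp3, the gene of a secreted protein that binds fibroblast growth factors, was expressed at a low level and showed the same ratio. It had 225, 300 and 255 counts in the saline and 403, 382 and 364 in the LPS libraries, or 5.89, 7.49 and 6.70 against 9.61, 9.44 and 9.97 CPM. The 3 LPS libraries lay within 1.06-fold of each other, while the saline ones ranged 1.27-fold. The ratio of means was 1.44 and the log2 change 0.53 (SE 0.121). This short gene (chr19:36917550-36919615, minus strand) lies 24.1 kb beyond the end of Tnks2.

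**Figure D1:**
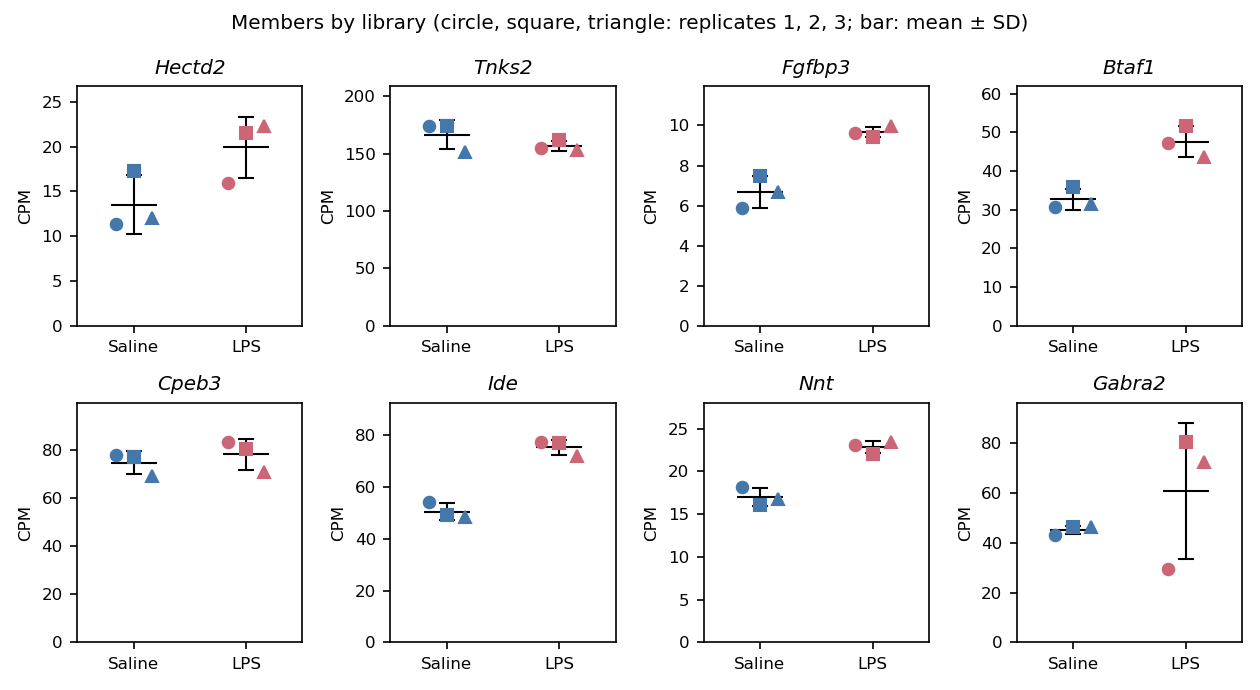
Level of the 8 genes in each library, in CPM on axes that start at 0. Circles, squares and triangles are replicates 1, 2 and 3, and bars are the mean and SD of 3 libraries. In Fgfbp3, Btaf1, Ide and Nnt the groups are apart, whereas in Gabra2 LPS 1 (29.5 CPM) lies below and LPS 2 and LPS 3 (80.2 and 72.6 CPM) above all saline libraries.

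The higher level did not extend over all genes of the interval. Cpeb3, the gene of a protein that binds cytoplasmic polyadenylation elements of mRNA and controls translation at synapses, lies between Btaf1 and Ide. It had 78.1, 76.9 and 69.2 CPM in Saline 1, 2 and 3 and 83.1, 80.2 and 71.0 CPM in LPS 1, 2 and 3. LPS 1 and LPS 2 lay above all saline libraries and LPS 3 inside their range, so the groups overlapped, with a ratio of 1.05 and a log2 change of 0.06 (SE 0.0761). March5, a mitochondrial ubiquitin ligase gene that is no member, lies between Cpeb3 and Ide. Saline libraries read 43.1 to 53.9 CPM and LPS libraries 51.5 to 52.8 CPM, with a ratio of 1.05 (log2 0.06, SE 0.0865, edgeR adjusted p = 0.908). So along the chromosome Fgfbp3 and Btaf1 were higher, the next 2 tested genes overlapped between groups, and Ide was higher again.

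Tnks2, the gene of tankyrase 2, a poly-ADP-ribose polymerase that acts on axin and telomere proteins, lies just before Fgfbp3. It had 174, 174 and 152 CPM in Saline 1, 2 and 3 and 155, 161 and 153 CPM in LPS 1, 2 and 3. All LPS libraries fell within the saline range, with a log2 change of -0.09 (SE 0.0671). Hectd2, a HECT-type ubiquitin ligase gene at the far end of the stretch, varied most within groups of the 6 chromosome 19 members. It read 11.3, 17.3 and 12.0 CPM in Saline 1, 2 and 3 and 15.98, 21.5 and 22.3 CPM in LPS 1, 2 and 3. Saline 2 was above LPS 1, so the groups overlapped in spite of a ratio of 1.47 (log2 0.56, SE 0.197). Hectd2 shares 1834 exon bases with the antisense gene Hectd2os, and the library kit is not stated to keep strand, so these counts are uncertain. Cpeb3 shares fewer, 116, with the antisense gene A330032B11Rik, and the same limit holds for it.

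In total, 2 of the 8 members (Ide and Btaf1) passed edgeR upward, where 0.0983% of all genes did, and none passed downward. The groups were apart, with LPS higher, in 4 members (Fgfbp3, Btaf1, Ide and Nnt), where 6.85% of all genes were. Both counts come from the contrast that chose the members, so nothing is read from them. The call of Btaf1 was marginal: of the 6 fits that each omit a library, it held in 1 (Saline 2 omitted), while Ide held in all 6. These fits reuse the libraries that chose both genes, so they too are a description.

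**Figure D2:**
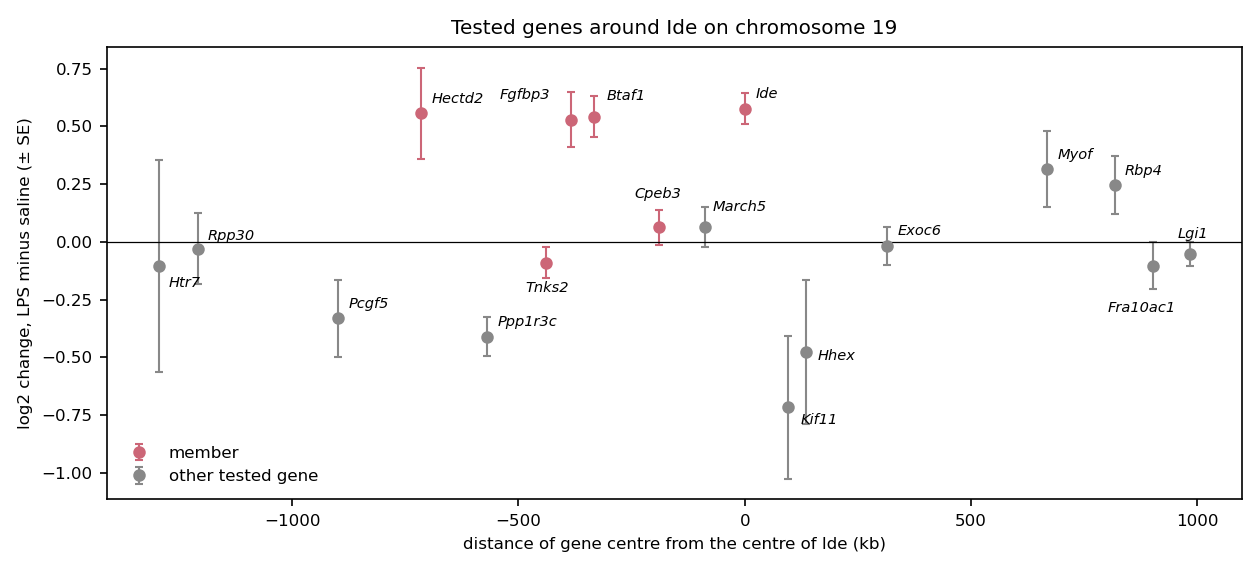
Log2 change (LPS minus saline, with SE) of the 18 tested genes around Ide against the distance of each gene's centre from that of Ide, in kb. Ide, Btaf1, Fgfbp3 and Hectd2 sit between 0.53 and 0.58, while Cpeb3, March5 and Tnks2 lie within 0.1 of 0.

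The window from 1 Mb below Hectd2 to 1 Mb above Ide held 12 tested genes besides the members, and edgeR called 0 of them. At an unadjusted p under 0.05 there were 2, both lower, and DESeq2 called 1. The share of all genes at that unadjusted p was not taken, so nothing is read from such counts here or below. Their median log2 change was -0.08, with a range from -0.72 to 0.32. The groups were apart in 2 of the 12, both lower in LPS, where 6.84% of all genes were. Ppp1r3c, which codes for a subunit that directs protein phosphatase 1 to glycogen, lies between Hectd2 and Tnks2. It had 58.7, 49.1 and 51.9 CPM in Saline 1, 2 and 3 and 37.0, 40.6 and 42.7 CPM in LPS 1, 2 and 3 (log2 -0.41, SE 0.0856, edgeR adjusted p = 0.146, DESeq2 adjusted p = 0.0086). Kif11, a mitotic kinesin gene next to Ide, was scarce, with a mean of 1.51 CPM in the saline and 0.916 CPM in the LPS group (log2 -0.72, SE 0.308, edgeR adjusted p = 0.695). Exoc6, the gene of an exocyst subunit further along, had a log2 change of -0.02 (SE 0.0825). No gene of the window outside the member set had all LPS libraries above all saline libraries.

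**Figure D3:**
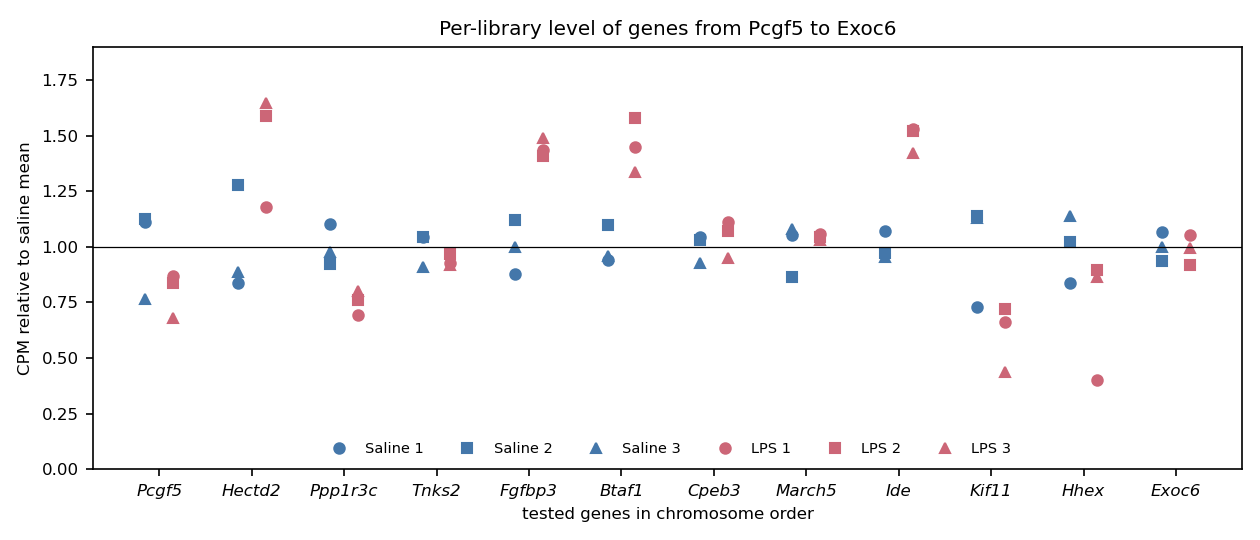
CPM of each library relative to the saline mean of the gene, for the 12 tested genes from Pcgf5 to Exoc6 in chromosome order. LPS points (red) stand clear above saline points (blue) in Fgfbp3, Btaf1 and Ide, clear below in Ppp1r3c and only just below in Kif11, and mix with them in Tnks2, Cpeb3, March5 and Exoc6.

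Chromosome 19 as a whole did not share the shift of Ide. Of its 465 tested genes, 29 (6.24%) had all LPS libraries above all saline libraries, where 6.85% of all genes did, and the median log2 change was 0.00231. Of the 465, edgeR called 5, where it called 0.0983% of all genes higher and 0.189% lower. Besides Ide and Btaf1 these were 3 genes outside the window: Kdm2a and Dusp5 were lower and Csf2ra higher.

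Nnt was higher in all 3 LPS libraries once its reads were put together. The table lists it in 2 rows whose gene models overlap: the single transcript of ENSMUSG00000116207 lies wholly within the exons of ENSMUSG00000025453, and the main transcript of each has 17 exons and 2505 coding bases. Summed, the counts were 694, 645 and 639 in Saline 1, 2 and 3 and 967, 893 and 854 in LPS 1, 2 and 3. The summed level was 18.2, 16.1 and 16.8 CPM against 23.1, 22.1 and 23.4 CPM. The groups were apart and each was tight, with a ratio of 1.34 and a log2 change of 0.42 (SE 0.0825). Nnt did not pass the edgeR threshold over all genes, while DESeq2 called it.

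The division of Nnt reads between the rows varied with the library. Row ENSMUSG00000025453 took 23.5%, 12.9% and 21.8% of the Nnt counts in Saline 1, 2 and 3. In LPS 1 and LPS 3 it took 17.3% and 17.0%, but in LPS 2 it took 48.6%. Read as a gene of its own, ENSMUSG00000116207 would thus put LPS 2, at 11.3 CPM, below all saline libraries (at least 13.1 CPM) and LPS 1 and LPS 3 (19.1 and 19.4 CPM) above them. Only the sum is free of this split, and what set the split was not tested. The reference assembly is of C57BL/6J and gene-level counts do not show whether the exons missing from that substrain were transcribed.

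Neighbours of Nnt did not move with it. Of the 11 other tested genes within 1 Mb, edgeR called 0, none had an unadjusted p under 0.05, and the groups overlapped in all 11. Paip1, which codes for a poly(A)-binding protein partner and is the next tested gene, averaged 41.6 ± 2.64 CPM in saline mice and 42.9 ± 2.70 CPM in LPS mice (log2 0.04, SE 0.0766).

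Gabra2 behaved unlike the other members, since the LPS mice differed among themselves. It had 43.2, 46.2 and 46.1 CPM in Saline 1, 2 and 3. In LPS 1 it had 29.5 CPM, below every saline library, and in LPS 2 and LPS 3 it had 80.2 and 72.6 CPM, above every saline library. The saline libraries lay within 1.07-fold of each other and the LPS libraries ranged 2.72-fold, a wider range than 99.1% of the 9844 genes with a mean of at least 10 CPM showed in the LPS group. The log2 change between the groups was 0.43 with an SE of 0.415, and edgeR did not call it. Without LPS 1 it was 0.76 (SE 0.0739) and passed the edgeR threshold, so that 1 library decides the value.

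The deposited FPKM (length- and depth-scaled fragment counts) set the same libraries apart in another way. The ratio of counts to FPKM, with library depth allowed for, stayed within 1.003-fold over the libraries in Ide, Btaf1 and Fgfbp3. In Gabra2 this ratio, relative to Saline 1, was 1.11 in Saline 2 and 0.966 in Saline 3. It was 0.983 in LPS 1 and 1.17 in both LPS 2 and LPS 3, so the libraries with the most Gabra2 counts also had the most counts per FPKM. The range over libraries, 1.21-fold, was wider than in 87.1% of genes. Whether this reflects another mix of transcripts was not tested.

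**Figure D4:**
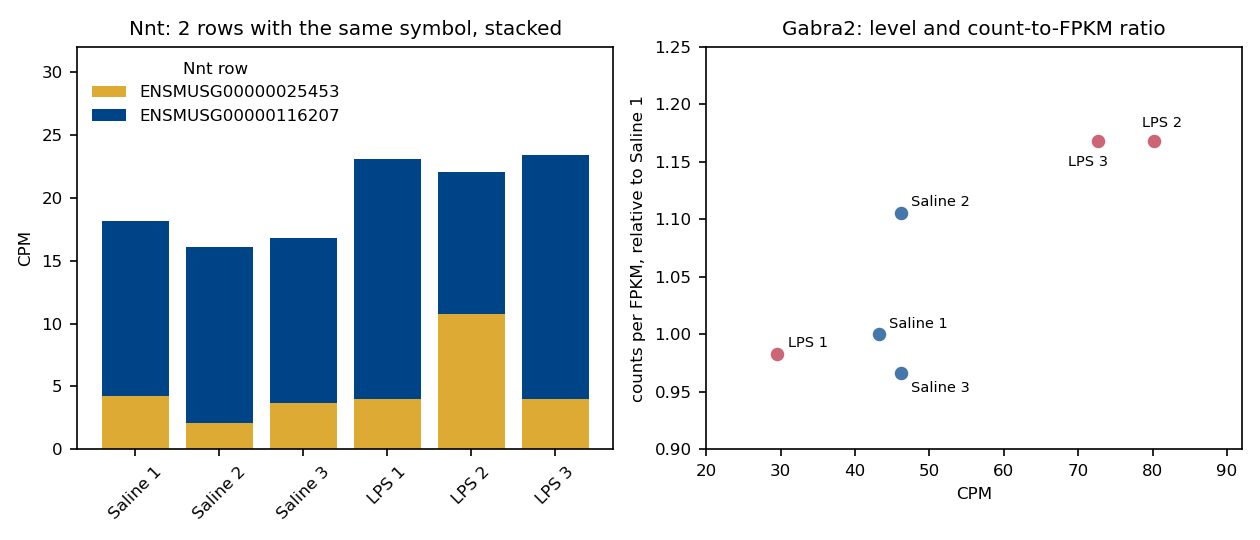
Left, CPM of both Nnt rows stacked by library, with axis from 0: totals are 16.1 to 18.2 CPM (saline) and 22.1 to 23.4 CPM (LPS), and the lower row is largest in LPS 2. Right, CPM of Gabra2 against the ratio of counts to FPKM relative to Saline 1 (axes do not start at 0): LPS 2 and LPS 3 stand apart from LPS 1 and the saline libraries.

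The genes beside Gabra2 on chromosome 5 code for other subunits of the same receptor and did not share its pattern. Gabrg1 averaged 25.4 ± 3.25 CPM in saline mice and 23.9 ± 1.01 CPM in LPS mice (log2 -0.09, SE 0.0989). Gabra4 had 92.2, 89.4 and 89.3 CPM in Saline 1, 2 and 3 and 84.2, 76.2 and 88.7 CPM in LPS 1, 2 and 3 (log2 -0.12, SE 0.0660, edgeR adjusted p = 0.760), with LPS 2 lowest, where Gabra2 was highest. Of 15 measured GABA-A receptor subunit and anchoring genes other than Gabra2, edgeR called 0, with 1 at an unadjusted p under 0.05 and a median log2 change of -0.03. The groups were apart in 5 of the 15, 2 with LPS higher and 3 with LPS lower, where 6.85% and 6.84% of all genes were. Nlgn2, an adhesion gene of inhibitory synapses, was at log2 0.13 (SE 0.0606, edgeR adjusted p = 0.717). Summed markers of inhibitory neurons (7 of 7 measured) were 734, 667 and 727 CPM in LPS 1, 2 and 3 and 620 to 682 CPM in saline, so LPS 1 was not low in them. Of the LPS libraries, LPS 1 was lowest in most summed marker sets. Among these were hippocampus (77.4 CPM against 177 and 95.3), thalamus (34.9 against 42.9 and 43.7) and oligodendrocytes (1686 against 2337 and 1854). So were excitatory neurons (7525 against 7919 and 8054), astrocytes (1268 against 1439 and 1343), microglia, endothelium, mural cells and meninges. LPS 1 was not lowest in inhibitory neurons, striatum or oligodendrocyte precursors. Hippocampus markers were also low in Saline 1 (107 CPM) and LPS 3 (95.3 CPM), where Gabra2 was at 43.2 and 72.6 CPM. The part of cell or region composition in the Gabra2 values was not tested.

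Other genes reported to differ among C57BL/6 stocks gave 5 measured of 8, and edgeR called 0, with none at an unadjusted p under 0.05 and none with groups apart. Cyfip2, an actin regulator gene with a substrain-specific coding variant, ranged over 1307 to 1550 CPM (saline) and 1277 to 1377 CPM (LPS) (log2 -0.12, SE 0.0707, edgeR adjusted p = 0.776). Dock2, an immune cell guanine exchange factor gene, was at log2 -0.30 (SE 0.160, edgeR adjusted p = 0.756), and Wdfy1, an endosomal adaptor gene, at 0.05 (SE 0.110).

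Entpd4, a Golgi nucleotidase gene also in that list, was listed with 0 counts in Saline 3 and 1661 to 2085 counts in each other library. An annotated transcript of its copy Entpd4b and 1 of Entpd4 share the same 3589 bases with 0 mismatches. Entpd4b stayed at 2546 to 2850 counts in all 6 libraries, with 2850 in Saline 3, so the missing Entpd4 counts did not appear there. The fitted log2 change of 0.39 (SE 1.49) rests on that library. Reads from these 2 transcripts cannot be told apart by sequence, other transcripts were not compared, and whether genotype or read assignment gave the 0 was not tested.

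Ide cleaves insulin, and genes of insulin and IGF signalling went both ways. Of the 22 measured, edgeR called 0, with 4 at an unadjusted p under 0.05, a median log2 change of -0.03 and a range from -0.42 to 0.22. Grb14, an adaptor that inhibits the insulin receptor, had 21.3, 21.96 and 23.6 CPM in Saline 1, 2 and 3 and 18.6, 18.4 and 18.6 CPM in LPS 1, 2 and 3 (log2 -0.27, SE 0.0787, edgeR adjusted p = 0.419). Irs2, a docking protein gene of insulin signalling, was at log2 -0.29 (SE 0.0874, edgeR adjusted p = 0.441). In both, every LPS library lay below every saline library. The groups were also apart, with LPS higher, in Foxo1 (log2 0.22, SE 0.0749, edgeR adjusted p = 0.541), Foxo3 (0.13) and Grb10 (0.10), named after their values were seen. The groups were thus apart in 3 genes upward and 2 downward of the 22, where 6.85% and 6.84% of all genes were.

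Among 17 measured peptide-degrading protease and amyloid precursor processing genes edgeR called 0, with 3 at an unadjusted p under 0.05 and a median log2 change of 0.06. Groups were apart in 2 of the 17 with LPS higher and 0 with LPS lower, where 6.85% and 6.84% of all genes were. Bace1, the β-secretase gene, had 83.7, 88.3 and 131 CPM in Saline 1, 2 and 3 and 149, 145 and 140 CPM in LPS 1, 2 and 3 (log2 0.52, SE 0.184, edgeR adjusted p = 0.662). Saline 3 lay near the LPS libraries, and without it the log2 change was 0.75 (SE 0.0651, edgeR adjusted p = 0.0014). DESeq2 called Bace1 with all libraries (adjusted p = 0.029). Ace, the gene of angiotensin-converting enzyme, was at log2 0.31 (SE 0.125, edgeR adjusted p = 0.682).

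Lists around the other members held no edgeR call either. In the list for Btaf1 (TBP, TFIID and related factors), 3 of 19 measured genes reached p below 0.05 before adjustment. The median of the 19 was -0.06 (log2). Groups were apart in 2 of the 19 with LPS higher and 4 with LPS lower, where 6.85% and 6.84% of all genes were. Taf9 had saline levels of 11.4 ± 1.33 CPM and LPS levels of 8.33 ± 0.661 CPM (log2 -0.45, SE 0.122, edgeR adjusted p = 0.354), and Taf4 was at log2 0.22 (SE 0.0771, edgeR adjusted p = 0.566). Medians were -0.04 for 10 CPEB and polyadenylation genes, 0.03 for 11 tankyrase partners, -0.01 for 11 FGF family and FGF receptor genes and -0.02 for 17 genes of mitochondrial NADPH and peroxide defence. At an unadjusted p under 0.05 these 4 lists had 1, 0, 0 and 1 members. Groups were apart with LPS higher in 1, 0, 0 and 1 of their genes, and with LPS lower in 2, 0, 0 and 1. Tob1, an antiproliferative adaptor gene of the first list, ranged over 47.3 to 58.0 CPM (saline) and 34.5 to 46.6 CPM (LPS) (log2 -0.44, SE 0.127, edgeR adjusted p = 0.443). Aldh1l2, a mitochondrial folate enzyme gene that yields NADPH, was at log2 0.54 (SE 0.222, edgeR adjusted p = 0.688), with LPS 1 at 3.91 CPM inside the saline range of 3.81 to 4.35 CPM.

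Per length, in the authors' FPKM, Tnks2 (26.2 ± 2.16) and Cpeb3 (22.2 ± 1.13) were the most abundant members in saline libraries (mean ± SD, n = 3). Ide (9.33 ± 0.335) and Gabra2 (8.10 ± 0.689) came next, then Nnt (4.66 ± 0.180), Btaf1 (4.16 ± 0.423), Fgfbp3 (3.46 ± 0.484) and Hectd2 (3.08 ± 0.735). From Nnt down, the saline libraries of each gene overlapped those of the next in this order, whereas those of Tnks2 and Cpeb3, and of Ide and Gabra2, did not. In LPS libraries Ide stood at 13.9 ± 0.610, Btaf1 at 6.02 ± 0.433, Fgfbp3 at 4.98 ± 0.204 and Nnt at 6.20 ± 0.311 FPKM.

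Over the 6 libraries, the genes whose log2 CPM followed Ide most closely were Rara (Pearson r = 0.991), Noc2l (0.987), Surf4 (0.985), Sox18 (0.982) and Hes5 (0.981), among 9669 annotated genes with a mean of at least 10 CPM. With 6 points in 2 groups, such values can restate a difference between the groups and are a description only. Sox18, an endothelial transcription factor gene, had a log2 change of 0.48 and Rara, a retinoic acid receptor gene, of 0.36, while Noc2l had 0.10. Among the members compared, Nnt (0.973) and Btaf1 (0.921) followed Ide most closely. Hectd2 (0.67), Cpeb3 (0.482), Gabra2 (0.245) and Tnks2 (-0.414) did so less or not at all. Fgfbp3, with a mean under 10 CPM, was not compared. Those most like Nnt were Ntng2 (0.988), Rasgef1c (0.985), Timm9 (0.984), Coro1c (0.982) and Celf6 (0.980). Those most like Gabra2 were Slc25a10 (0.994), Zdhhc14 (0.986), Sh3bp1 (0.980), Slx1b (0.975) and Cblb (0.974), each lowest in LPS 1 but over a far smaller range, such as 10.9 to 13.8 CPM for Slc25a10.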

How the data were processed

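The authors deposited 1 table with whole-number read counts per gene row and library, and FPKM values beside them, per the file headers. TopHat2 2.1, DESeq 1.10.1 and build GRCm38 are named, without roles, per the submitters' processing notes; no source used here names the counting program or annotation. Of 14250 rows, 13559 were found by Ensembl identifier in GENCODE M21 (GRCm38), which gave positions; the remaining rows included 688 without an Ensembl identifier. The 2 rows with the symbol Nnt were summed, leaving 14249.

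Counts were tested with edgeR 4.0.16 in R 4.3.3 (quasi-likelihood, robust, TMM factors, treatment as the only term, 3 against 3 libraries), with Benjamini-Hochberg adjustment over all rows and a threshold of 0.05. filterByExpr removed 0 rows. SE is the log2 change divided by the square root of F. DESeq2 1.42.0 and limma 3.58.1 (voom, and log2(FPKM + 1)) were alternatives. The steps were tested on simulated counts. No libraries were near-duplicates (chi-square per degree of freedom at least 32.1). The members and lists were chosen with earlier results of these data known. Named genes are all members, neighbours between members, called or with groups apart, list genes with the smallest p, and the 5 genes most like Ide, Nnt and Gabra2. Further neighbours and list genes, the called genes of chromosome 19, Gabra4 and Entpd4b were named after their values were seen. Some genes of the lists are counted but not reported here by name.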

Additional observations from a re-analysis of the deposited data

How the results depend on the processing

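The log2 changes of the members kept their direction in every alternative run, from 0.52 to 0.63 for Ide, 0.44 to 0.62 for Btaf1, 0.43 to 0.62 for Fgfbp3, 0.35 to 0.47 for summed Nnt and 0.17 to 0.76 for Gabra2. The lowest value of each range came from limma on log2(FPKM + 1), a scale on which the added 1 makes log2 changes smaller. Ide passed the threshold in all 15 alternatives and Btaf1 in 7. The alternatives reuse the libraries that chose these genes, and several differ little from the fit reported, so these tallies are a description. Members called were 2 in the fit reported, 4 with DESeq2, 1 with a mean of at least 50 counts and 1 with limma on FPKM. Neighbours called on chromosome 19 were 1 with DESeq2. Over all genes, DESeq2 called 61 higher and 80 lower, and limma on FPKM 8 higher. The cause was not tested. Plain library size, RLE factors, separate Nnt rows and limma-voom kept each of these counts within 1.5 times, and dropping the low-count filter left the tested rows as they were. Kept apart, the Nnt rows ENSMUSG00000025453 and ENSMUSG00000116207 gave log2 changes of 0.90 and 0.28. In the leave-one-out fits the calls numbered 1 to 2 members, 0 neighbours, 14 to 20 higher genes and 22 to 35 lower genes. With the replicate number as a block, 10 genes were higher and 21 lower and 1 member, Ide, was called. Over all genes, same-numbered libraries did not deviate together (r = -0.0264, 0.026 and 0.0423). A pairing that touches few genes would not show in these values. With 3 mice per group, differences near the size of that of Ide (log2 0.58) could also be missed. Hectd2 (0.56) and Fgfbp3 (0.53) were not called in the fit reported.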

Other observations

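Rows that drop to 0 in a single library were rare. Besides Entpd4, 1 other row, Fam177a, had 0 counts in 1 library and at least 500 in each of the other 5: it was at 0 in LPS 3 and at 1008 to 1107 counts elsewhere. Ptp4a1, like Nnt, is listed in 2 rows. Its row ENSMUSG00000026064 had 1095, 1012 and 902 counts in Saline 1, Saline 3 and LPS 3 but 27, 48 and 82 in Saline 2, LPS 1 and LPS 2, a division that follows neither treatment group.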
